A study of Triticum aestivum with 96 samples.

Results

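Winter Manitou crowns after 42 days of cold were compared with crowns of the same line after 14 days. The comparison used 6 of the 96 arrays of the series, namely the 3 labelled winter Manitou and 42 days and the 3 labelled winter Manitou and 14 days, and every probeset other than the Affymetrix controls was tested, which gave 61179 probesets. Winter Manitou is a near isogenic line of hexaploid wheat that carries the winter allele vrn-A1 of Norstar in the background of the spring cultivar Manitou, with vrn-B1 and vrn-D1 as in every line of the study. The other lines used here are spring Manitou, which has the same background with the spring allele Vrn-A1, winter Norstar, which has vrn-A1 in the background of the hardy cultivar Norstar, and spring Norstar, which has Vrn-A1 in that background and enters only the marker probesets and the shared estimate of the spread. Seedlings at the 3-leaf stage were held at 6 °C under long days, and each sample was RNA of pooled crowns. The crown lies where shoot and root meet, and it holds the shoot apex. A line of this kind is limited as a model of the vernalization locus, since linked Norstar sequence can come with the allele. Crowns also hold several tissues, so that fewer cells of a type and less RNA per cell cannot be told apart.

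Wheat meets long cold in 2 ways. Cold acclimation builds up freezing tolerance through cold-regulated proteins, dehydrins and sugars, and it sets in early. Vernalization is slower: in winter wheat the MADS-box gene Vrn1 is silent at sowing, is switched on by weeks of cold, and then moves the shoot apex from making leaves to making flowers. Spring alleles of Vrn1 are active without cold. The step from 14 to 42 days in a winter line therefore covers the time in which Vrn1 is known to build up, after the early cold response.

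The 6 arrays were close to each other across probesets. Replicate 2 at 14 days stood apart in probesets that separate the backgrounds, and replicates 2 and 3 at 14 days in control probesets. Deposited values are log2 signals (RMA), so a difference of 1 is a 2-fold difference. The correlation between arrays across probesets was 0.9959 to 0.9965 within 42 days, 0.9960 to 0.9969 within 14 days and 0.9926 to 0.9950 between the days. Over both Manitou lines, 59 probesets lay more than 4 log2 units lower than in both Norstar lines. Their median level was 4.33, 4.27 and 4.33 in the 42-day arrays, against 4.36, 6.54 and 4.43 in the 14-day arrays. Replicate 2 at 14 days was thus the array with Norstar-type signal, with 56 of the 59 probesets over 1 log2 unit above the Manitou median and a median excess equal to 8.13% of the Norstar level on the linear scale. Among the 48 Manitou arrays only this array and 1 array of spring Manitou at 2 days showed a median shift over 1. None of the 59 probesets passed the test between 42 and 14 days. Another 27 probesets lay more than 4 log2 units higher in both Manitou lines than in both Norstar lines. Of these, 3 were called higher at 42 days and none lower, against 0.644% and 0.129% of all probesets tested. Their median shift from the Manitou median was 0.06, -0.23 and 0.04 in the 14-day arrays, and 0.09, -0.03 and 0.02 in the 42-day arrays. An 18S rRNA control probeset also differed, at 7.29, 7.25 and 7.56 in the 42-day arrays and 7.92, 9.81 and 10.61 in the 14-day arrays. The median of 36 spike-in control probesets was 7.53, 7.72 and 7.86 at 42 days and 7.71, 7.19 and 7.22 at 14 days. Replicates 2 and 3 at 14 days thus stood apart from the other arrays in both controls. The part of these differences in the results was not tested. Some results are also given without replicate 2 at 14 days, which keeps replicate 3.

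At an adjusted p under 0.01 in limma, 473 probesets (0.773% of those tested) differed between the days. Of these, 394 probesets (0.644% of those tested) were higher and 79 (0.129%) were lower at 42 than at 14 days. In 134 (0.219%) the rise was at least 2-fold, and in 15 (0.0245%) the fall was. The median change of the called probesets was 0.81 among the higher and -0.65 among the lower, against -0.03 over all probesets tested. In every called probeset the 3 arrays of one day lay apart from the 3 of the other, which was also true of 10.8% of all probesets tested in the upward and 13.4% in the downward direction. Without replicate 2 at 14 days the counts were 176 and 33, of which 176 and 31 were among the 394 and 79. Leaving out replicate 1 at 14 days gave 299 and 58, and replicate 3 at 14 days 197 and 40. Leaving out replicates 1, 2 and 3 at 42 days gave 283 and 108, 209 and 24, and 245 and 45. The totals thus moved with single arrays while rises outnumbered falls each time. Gene names were at hand for 48 of the higher and 11 of the lower probesets, and 110 and 20 carried the suffix _x_at or _s_at, used where probes match more than 1 transcript. Near-identical copies in the A, B and D genomes of wheat can share any probeset.

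The vernalization genes were the leading rises. Vrn-A1 (Ta.30607.1.A1_at), the probeset closest to the swapped vernalization gene, stood at 10.96, 11.15 and 11.07 in the 42-day arrays, against 8.12, 8.50 and 8.14 in the 14-day arrays. The days did not overlap, and each 42-day array was more than 2 log2 units above the highest 14-day array. The change was 2.81 (SE 0.18), a 7.01-fold rise (adjusted p = 2.6e-20 in limma). Vrt1 (Ta.142.1.S1_at), closest to a Vrn1 sequence read from Norstar, stood at 8.18, 8.35 and 8.35 at 42 days, against 5.15, 5.73 and 4.99 at 14 days. Its change of 3.00 (SE 0.21, adjusted p = 9.3e-18 in limma) was the largest rise of all probesets tested. TaAffx.143995.17.S1_s_at, chosen after its values were seen, shares its name up to the strand letter with a probeset that the study's text assigns to Vrn1 of Triticum monococcum, read on the antisense strand. It stood at 9.45, 9.77 and 9.79 at 42 days, against 6.65, 6.73 and 6.76 at 14 days, a change of 2.96 (SE 0.17, adjusted p = 8.7e-22 in limma). The study treats Vrn-A1 and Vrt1 as different genes of related sequence. In its alignment Ta.30607.1.A1_at matched Vrn-A1, while Ta.142.1.S1_at matched Vrn-B1, the copy on chromosome 5B. It adds that the probes of Ta.142.1.S1_at cannot separate Vrn-B1 from Vrn-D1. The study also names a similar MADS-box gene within the Vrn-A1 locus as a possible source of that signal. Which gene copy each probeset reads was not tested here. The changes of Vrn-A1, Vrt1 and TaAffx.143995.17.S1_s_at without replicate 2 at 14 days were 2.93, 3.22 and 2.96.

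**Figure D1:**
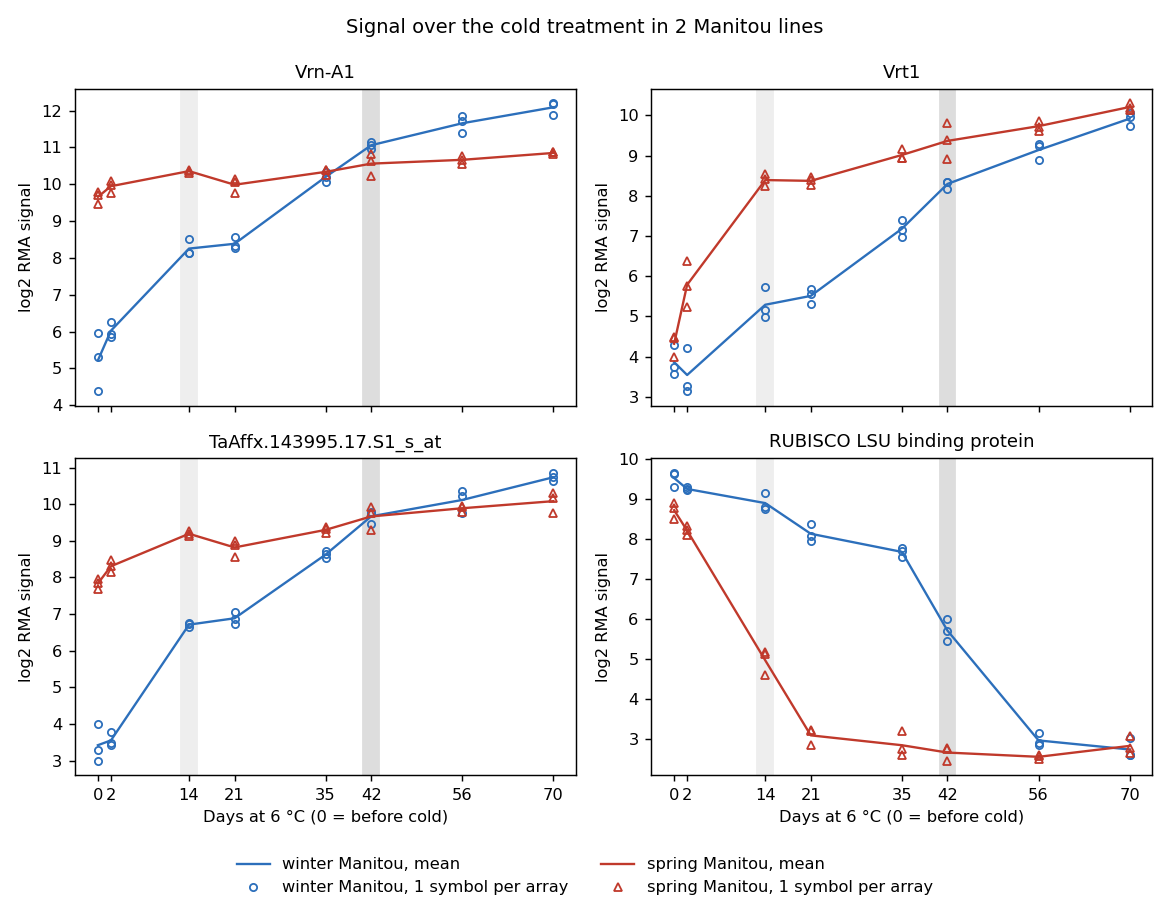
Log2 signal (y axis) against days at 6 °C (x axis) for 4 probesets in winter Manitou (circles) and spring Manitou (triangles), with 1 symbol per array and a line through the means of 3 arrays; grey bands mark 14 and 42 days. In winter Manitou, Vrn-A1 lies between 10.96 and 11.15 at 42 days and between 8.12 and 8.50 at 14 days, while in spring Manitou it already lies between 10.31 and 10.40 at 14 days.

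The rise of Vrn1 was spread unevenly over the weeks of cold. In winter Manitou, Vrn-A1 stood at 4.38, 5.97 and 5.30 before the cold, 5.86, 5.94 and 6.27 at 2 days, and 8.12 to 8.50 at 14 days. It stood at 8.33, 8.26 and 8.56 at 21 days, 10.20, 10.07 and 10.33 at 35 days, and 12.20, 11.88 and 12.19 at 70 days. The 14-day and 21-day arrays overlapped, while 35 days lay above 21 days in every array. The arrays at 35 and 21 days take no part in the 42 to 14 day comparison, and between them Vrn-A1 rose by 1.81 (SE 0.18, adjusted p = 6.3e-11 in limma). Vrt1 rose by 1.67 over the same days (adjusted p = 6.6e-07) and TaAffx.143995.17.S1_s_at by 1.74 (adjusted p = 6.7e-11).

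A further MADS-box gene rose in winter Manitou, at a lower level. MADS2 (WM7, Ta.6793.1.A1_at), annotated as a MIKC-type MADS-box transcription factor, the class to which floral regulators belong, stood at 4.98, 5.13 and 5.05 at 42 days, against 3.53, 3.52 and 3.33 at 14 days. The change was 1.59 (SE 0.24, adjusted p = 1.3e-05 in limma). It was dim at both days, below the log2 value of 5.15 that served as the brightness limit in an alternative, and it went on to 7.65, 7.12 and 7.63 at 70 days. In spring Manitou MADS2 rose by 1.48 from 14 to 42 days (adjusted p = 3.2e-05 in limma). In winter Norstar its change was 0.26 (adjusted p = 0.57). The difference between the winter lines, 1.33, missed the threshold (adjusted p = 0.21). FPF-like 1 (Ta.9696.1.S1_at), related to a flowering promoting factor of mustard and Arabidopsis, took the other direction, with 4.25, 4.10 and 4.00 at 42 days and 5.46, 5.11 and 5.06 at 14 days. It fell by 1.09 (SE 0.21, adjusted p = 0.00066 in limma), or by 0.97 (adjusted p = 0.014) without replicate 1 at 14 days, and had been at 6.24, 7.85 and 6.37 before the cold. FPF-like 1 is not a member of the flowering and MADS list, which was picked by words in the names. Of the 10 probesets in that list, 3 rose and none fell, with a median change of 0.30. Over all probesets, 0.644% rose and the median was -0.03. Those 3 are Vrn-A1, Vrt1 and MADS2, and the count was also 3 without replicate 2 at 14 days. Most members of the gene lists, here and below, come from probesets that the study selected on these samples. List counts are therefore no independent evidence.

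The largest fall was in a probeset named for a chloroplast chaperone. The study's text calls TaAffx.43393.1.S1_at a RUBISCO LSU binding protein, while its table of strongly changing genes gives Rubisco LSU. The name in the text, used here, is that of chaperonins that help fold the large subunit of Rubisco. Which name holds was not tested. The probeset stood at 5.44, 5.68 and 5.99 at 42 days, against 9.15, 8.73 and 8.79 at 14 days. All 42-day arrays lay more than 2 log2 units below the lowest 14-day array. The change was -3.19 (SE 0.20, adjusted p = 1.2e-20 in limma), a 9.12-fold difference. Its fall came late: the arrays stood at 9.65, 9.61 and 9.29 before the cold, 7.77, 7.55 and 7.69 at 35 days, and 2.83, 2.89 and 3.15 at 56 days. No other member of the photosynthesis list passed the test. In the photosynthesis list, 1 of 25 probesets fell and none rose, against 0.129% and 0.644% of all probesets tested, and the median change was 0.11. A photosystem II 10 kDa polypeptide (Ta.28750.1.S1_at) stood at 7.45, 8.05 and 7.46 at 42 days, against 6.60, 6.49 and 6.07 at 14 days, which gave 1.26 (adjusted p = 0.011 in limma) and missed the threshold. A chlorophyll a-b binding protein (Ta.27751.6.S1_at), part of the light-harvesting antenna, gave 0.44 (adjusted p = 0.084).

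Lectins and chitinases were among the named rises outside the MADS-box genes. The jacalin-like lectin (Ta.7388.2.S1_a_at), a sugar-binding protein, stood at 6.84, 6.92 and 8.49 at 42 days, against 4.96, 4.72 and 4.48 at 14 days. It rose by 2.70 (SE 0.51, adjusted p = 0.00049 in limma), with replicate 3 at 42 days well above the other 2 arrays, and without that array the change was 2.16 (adjusted p = 0.03). This probeset had no steady course. It stood at 10.46, 9.80 and 11.37 before the cold and at 9.09, 7.41 and 6.56 at 21 days, so that 14 days was its lowest point. A second probeset of the same cluster, Ta.7388.1.S1_at, which was chosen after its values were seen, changed by 2.40 (adjusted p = 0.00095). Hessian fly response gene 1 (Ta.13334.1.A1_at), which in wheat encodes a lectin of the same domain family, stood at 7.62, 8.17 and 7.52 at 42 days, against 5.46, 6.40 and 5.11 at 14 days. It rose by 2.11 (SE 0.37, adjusted p = 0.00013). The chitinase Ta.26340.1.A1_at, one of the enzymes that cut the chitin of fungal walls, stood at 9.51, 9.59 and 9.67 at 42 days, against 8.14, 8.26 and 8.39 at 14 days, a rise of 1.32 (SE 0.24, adjusted p = 0.00037). Chitinase 2 (Ta.26916.1.A1_at) stood at 6.86, 7.02 and 6.53 at 42 days and 5.67, 5.47 and 5.32 at 14 days, a rise of 1.32 (SE 0.21, adjusted p = 2.5e-05).

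The list of defence peptides and PR proteins, which holds these genes, had calls in both directions. Of its 27 probesets 4 rose and 1 fell, against 0.644% and 0.129% of all probesets tested. The median change was -0.04, beside -0.03 over all probesets tested. The 4 that rose are the jacalin-like lectin, Hessian fly response gene 1 and both chitinases. The member that fell, proteinase inhibitor Rgpi9 (Ta.5659.1.S1_at), is also a member of the protease inhibitor list. It stood at 9.88, 9.50 and 9.89 at 42 days, against 10.52, 10.36 and 10.38 at 14 days, and fell by 0.66 (adjusted p = 0.004 in limma), a call that was lost without replicate 2 at 42 days (change -0.53, adjusted p = 0.11) or any 14-day array (changes -0.69 to -0.61, adjusted p = 0.017 to 0.032). The antimicrobial peptides gamma-thionin (Ta.18720.1.S1_a_at) and gamma-1-purothionin (Ta.27389.1.S1_at) had changes of -0.83 and -0.61 and missed the threshold (adjusted p = 0.17 and 0.38).

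**Figure D2:**
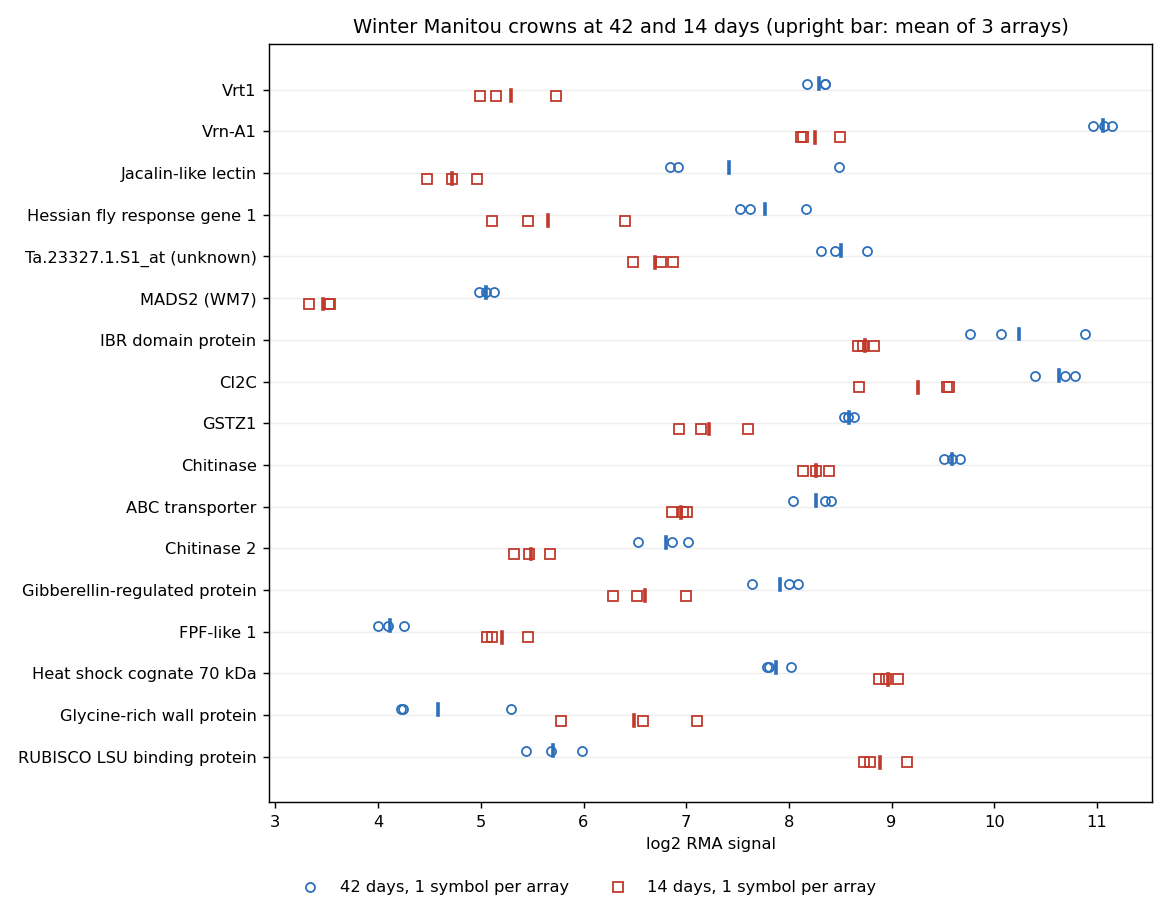
Log2 signal (x axis) of 17 named probesets (y axis) in winter Manitou at 42 days (circles) and 14 days (squares), with 1 symbol per array and an upright bar at the mean of 3 arrays. The symbols of the 2 days do not overlap in any row; the RUBISCO LSU binding protein lies between 5.44 and 5.99 at 42 days and between 8.73 and 9.15 at 14 days.

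Further rises were spread over enzymes, transporters and signalling proteins. GSTZ1 (Ta.237.1.S1_a_at), a glutathione S-transferase of the zeta class, stood at 8.54, 8.63 and 8.58 at 42 days, against 7.60, 6.93 and 7.14 at 14 days, a rise of 1.36 (SE 0.20, adjusted p = 6.7e-06 in limma). A second probeset of that gene, Ta.237.1.S1_at, rose by 1.24. An ABC transporter (Ta.10325.1.S1_at), which moves compounds across membranes with ATP, stood at 8.41, 8.04 and 8.35 at 42 days and 6.97, 6.86 and 7.01 at 14 days, a rise of 1.32 (SE 0.20, adjusted p = 1.3e-05). The day groups were far apart in both genes, and both calls held without replicate 2 at 14 days. An IBR domain protein (Ta.13318.1.S1_at), a domain found in ubiquitin ligases, stood at 10.07, 9.76 and 10.88 at 42 days, against 8.83, 8.67 and 8.72 at 14 days, a rise of 1.49 (adjusted p = 4.4e-05). A receptor-like protein kinase (Ta.26901.1.S1_at) rose by 1.07 (adjusted p = 1.7e-05) and an amino acid transporter (Ta.27343.1.S1_at) by 0.82 (adjusted p = 5.3e-05). The transporter was also higher at 35 than at 21 days, by 0.68 (adjusted p = 0.0032).

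Some rises kept their direction but not their call when single arrays were left out. CI2C (Ta.1338.1.S1_at) stood at 10.79, 10.40 and 10.69 at 42 days, against 9.54, 8.68 and 9.56 at 14 days, a change of 1.37 (adjusted p = 0.00038 in limma) that was 1.07 without replicate 2 at 14 days (adjusted p = 0.034). In winter Norstar CI2C was low, at 3.48, 3.86 and 4.06 at 42 days and 3.77, 3.84 and 4.26 at 14 days. A gibberellin-regulated protein (Ta.4406.1.S1_at), named after a hormone of growth and flowering, stood at 7.64, 8.00 and 8.09 at 42 days, against 7.00, 6.52 and 6.29 at 14 days. Its change of 1.31 (adjusted p = 0.003) was 1.26 and 1.22 without replicates 2 and 3 at 42 days (adjusted p = 0.028 and 0.034), and 1.27 and 1.15 without replicates 2 and 3 at 14 days (adjusted p = 0.029 and 0.053), so that it stayed near its size and missed the threshold. Ta.23327.1.S1_at, of unknown function, stood at 8.31, 8.76 and 8.45 at 42 days, against 6.75, 6.48 and 6.87 at 14 days, a change of 1.81 (SE 0.37, adjusted p = 0.0017), which was 1.68 without replicate 2 at 42 days (adjusted p = 0.025) and 1.70 without replicate 2 at 14 days (adjusted p = 0.023).

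Falls of 2-fold or more in named genes were few. A heat shock cognate 70 kDa protein (Ta.28220.1.S1_at), a chaperone present in unstressed cells, stood at 8.02, 7.81 and 7.79 at 42 days, against 9.06, 8.88 and 8.95 at 14 days, and fell by 1.09 (SE 0.19, adjusted p = 0.00011 in limma). A glycine-rich cell wall structural protein (Ta.27399.3.S1_at) stood at 4.22, 4.24 and 5.29 at 42 days, against 7.11, 5.78 and 6.58 at 14 days. It fell by 1.91 (SE 0.31, adjusted p = 5.3e-05) and had reached 3.86, 3.93 and 3.84 by 35 days. A proline-rich cell wall protein (Ta.3341.1.S1_at) fell by 0.65 (adjusted p = 0.00076), and its changes of -0.58 without replicate 3 at 42 days and -0.56 without replicate 1 at 14 days missed the threshold (adjusted p = 0.02 and 0.019). These were the 2 called members of the 31 cell wall probesets, whose median change was -0.01, where 0.129% of all probesets tested were called lower. Hexokinase (Ta.5163.1.S1_at), which phosphorylates glucose, fell by 0.55 (adjusted p = 0.006), a call lost when replicate 1 or 3 at 42 days or any replicate at 14 days was left out (changes -0.59 to -0.41, adjusted p = 0.013 to 0.098).

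Among probesets without a gene name, the 2 largest rises and 2 largest falls by the same rule were as follows. TaAffx.109962.1.S1_at stood at 9.02, 9.11 and 8.26 at 42 days, against 5.89, 6.25 and 5.97 at 14 days, a rise of 2.76 (SE 0.35, adjusted p = 2.4e-07 in limma). Ta.15067.1.S1_at rose by 2.49 (adjusted p = 0.00017). Ta.5406.1.S1_at stood at 4.83, 4.89 and 5.13 at 42 days, against 7.50, 6.43 and 7.18 at 14 days, and fell by 2.09 (adjusted p = 0.0003). It also fell by 1.87 between 21 and 35 days (adjusted p = 0.0042). TaAffx.98930.1.A1_at fell by 1.67 (adjusted p = 1.8e-05).

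The known cold genes did not pass the test between these days. COR14a (Ta.1165.1.A1_at), a cold-responsive chloroplast protein, stood at 12.46, 12.05 and 11.83 at 42 days, against 12.63, 12.70 and 12.60 at 14 days, a change of -0.53 (SE 0.45, adjusted p = 0.69 in limma). COR14b (Ta.245.1.S1_at) had -0.65 (adjusted p = 0.53), WCOR518 (TaAffx.17284.1.A1_at), a cold acclimation protein, -0.71 (adjusted p = 0.28), and the dehydrin WCOR726 (Ta.28613.1.S1_at) 0.09 (adjusted p = 0.95). The low temperature genes BLT14.2 (TaAffx.124475.1.A1_at) and BLT14.1 (Ta.13784.1.S1_at) had 0.36 and 0.26 (adjusted p = 0.75 and 0.72). The interval of the model, which takes its spread from all 96 arrays, ran from -1.42 to 0.37 for COR14a, whose SDs were 0.32 at 42 days and 0.05 at 14 days. The dehydrin WZY1-1 (Ta.13255.1.S1_at), one of the proteins that protect cells from drying, stood at 8.45, 8.62 and 9.31 at 42 days, against 7.98, 7.27 and 7.35 at 14 days. Its change of 1.26 (SE 0.39, adjusted p = 0.08) missed the threshold although the days did not overlap. The days also lay apart in COR14a, COR14b and WCOR518, downward, and in BLT14.1, upward. This was true of 13.4% and 10.8% of all probesets tested. In spring Manitou WCOR518 fell by 1.78 (adjusted p = 9.6e-05 in limma). The other genes of this paragraph missed the threshold there, with changes from -1.48 in COR14b to 1.24 in WZY1-1.

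In the cold-regulated list 1 of 22 probesets rose and none fell, against 0.644% and 0.129% of all probesets tested, with a median change of 0.06. The member that rose, a low temperature and salt responsive protein (Ta.2678.3.S1_at), named for small membrane proteins, stood at 10.80, 10.52 and 10.69 at 42 days, against 9.64, 9.94 and 9.80 at 14 days. It rose by 0.88 (adjusted p = 0.004 in limma), and the call held only without replicate 2 at 42 days when single arrays were left out (changes 0.80 to 0.95, adjusted p = 0.011 to 0.034 without each other array). In the dehydrin and LEA list none of 29 probesets passed, with 5 higher and 2 lower at an unadjusted p under 0.05, where 6.2% and 7.02% of all probesets stood. The largest negative changes of this list came from 1 array. A group 1 LEA probeset (Ta.14145.1.S1_at) stood at 3.90, 4.11 and 4.33 at 42 days, against 4.68, 8.70 and 4.58 at 14 days, and the array at 8.70 is the one with Norstar-type signal. In winter Norstar the same probeset stood at 12.10, 12.22 and 12.08 at 42 days and at 12.41, 12.23 and 12.50 at 14 days. Its change in winter Manitou was -1.87 (adjusted p = 0.016), or -0.52 (adjusted p = 0.74) without that array.

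Among sugar genes, sucrose synthase 2 (Ta.4274.1.S1_at), which splits and makes sucrose, rose by 0.78 (adjusted p = 0.0072 in limma), with 11.07, 11.64 and 11.66 at 42 days and 10.72, 10.92 and 10.39 at 14 days. It was the 1 called member of the 17 in the fructan and sugar list, whose median change was 0.24, where 0.644% of all probesets were called higher. Without replicate 2 or 3 at 42 days or replicate 1 or 3 at 14 days the change was 0.64 to 0.80 and missed the threshold (adjusted p = 0.02 to 0.12). Apoplastic invertase 1 (Ta.11120.1.S1_a_at), which cuts sucrose outside the cell, had -0.81 (adjusted p = 0.058), and galactinol synthase (Ta.30113.1.S1_at), the entry into raffinose sugars, had 0.82 (adjusted p = 0.033). Beta-fructosidase (Ta.9000.1.S1_at) had 0.61 (adjusted p = 0.26).

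**Figure D3:**
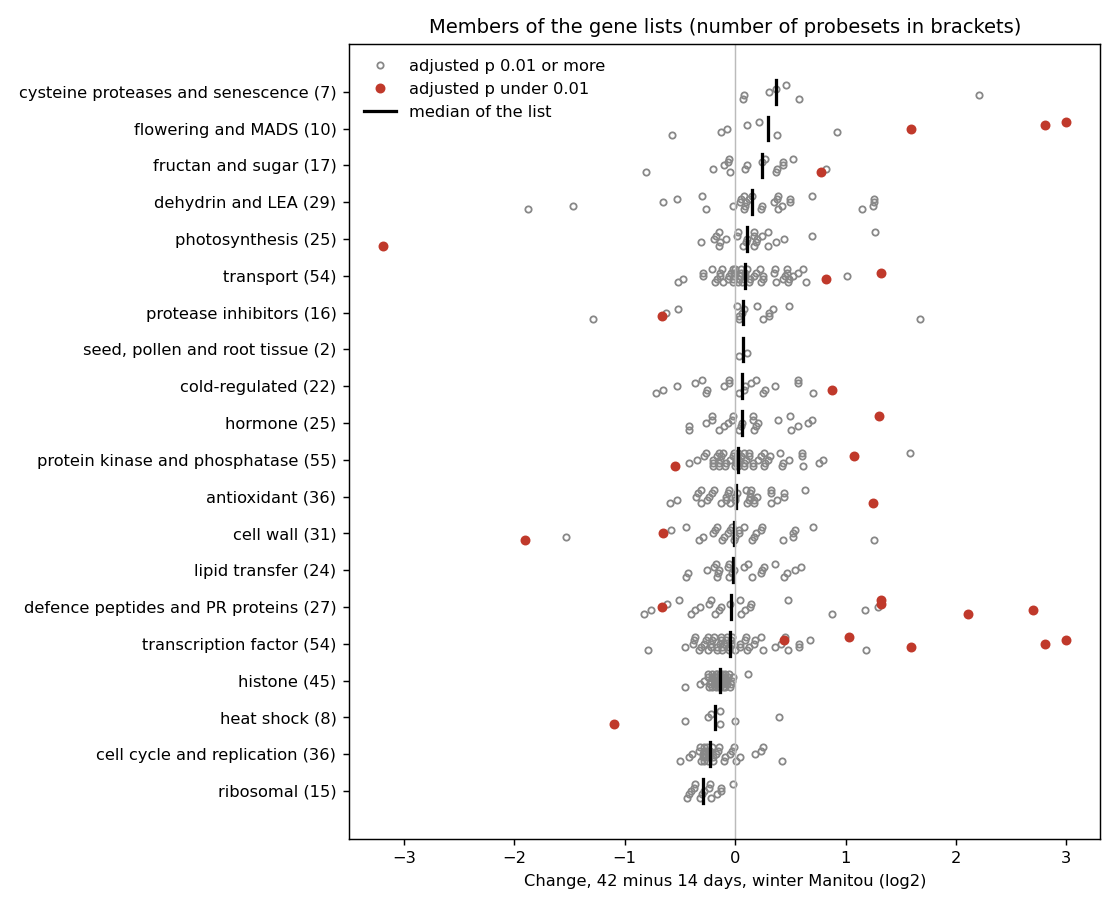
Change from 14 to 42 days in winter Manitou (x axis, log2, 42 minus 14 days) of each probeset in 20 gene lists (y axis, number of probesets in brackets), with called probesets filled and a bar at the median of each list. Medians run from -0.29 in the ribosomal list to 0.37 in the cysteine protease and senescence list, and the widest changes are single members such as Vrt1 at 3.00 and the RUBISCO LSU binding protein at -3.19.

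The lists that mark dividing cells and protein synthesis had mostly negative small changes and no called member. Over all probesets tested, 57.8% had a negative change, and 7.02% were lower and 6.2% higher at an unadjusted p under 0.05. Of 36 probesets for cell cycle and replication, 30 had a negative change, the median was -0.23 and none passed in limma, while 19 were lower and 3 higher at an unadjusted p under 0.05. Cyclin-B2-2 (Ta.6253.1.S1_a_at), a cyclin of mitosis, stood at 8.40, 8.27 and 8.49 at 42 days, against 8.78, 8.93 and 8.93 at 14 days, a change of -0.50 (SE 0.14, adjusted p = 0.032). Of 45 histone probesets, which cover the proteins that pack DNA made in S phase, 44 had a negative change with a median of -0.14, none passed, and 2 were lower at an unadjusted p under 0.05. All 15 ribosomal probesets had a negative change, the median was -0.29, none passed, and 12 were lower at an unadjusted p under 0.05. Ribosomal protein L13 (Ta.6020.2.S1_a_at) stood at 10.19, 9.86 and 10.02 at 42 days, against 10.39, 10.37 and 10.41 at 14 days, a change of -0.37 (adjusted p = 0.011). Members of these lists were read on the same 6 arrays and are not independent of each other. Without replicate 2 at 14 days the medians were -0.22, -0.13 and -0.29 in these lists, and 14, 1 and 10 probesets were lower at an unadjusted p under 0.05. Between 35 and 21 days in winter Manitou the medians of the 3 lists, in the same order, were 0.14, 0.11 and -0.07. From 14 to 42 days they were -0.40, -0.36 and -0.38 in spring Manitou, and -0.14, -0.14 and -0.15 in winter Norstar. The decline was thus neither steady over the days nor particular to winter Manitou. Probesets with a mean log2 level of 12 or more, where many histones lie, had a median change of -0.04, and 65.1% of those 1000 probesets had a negative change.

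Markers of ageing tissue had positive changes, none of which passed. All 7 members of the cysteine protease and senescence list had a positive change, against 42.2% of all probesets tested, with a median of 0.37, none passed in limma, and 3 were higher at an unadjusted p under 0.05 (1 without replicate 2 at 14 days), where 6.2% of all probesets stood. SAG12 (Ta.29534.1.S1_at), a cysteine protease of senescing leaves, stood at 4.57, 5.77 and 6.50 at 42 days, against 4.14, 3.09 and 2.99 at 14 days. The change was 2.21, but with an SE of 0.65 its adjusted p was 0.058. The vacuolar processing enzyme gamma-VPE (Ta.30798.3.S1_at) had 0.46 (adjusted p = 0.22). Both probesets in the list of seed, pollen and root genes had changes of 0.10 and 0.04. The mean level of the photosynthesis list, the markers of green leaf, was 9.40, 9.51 and 9.28 in the 42-day arrays and 9.52, 9.45 and 9.16 in the 14-day arrays. The part of tissue make-up in the results was not tested.

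The remaining lists held few calls. Over all probesets tested, 0.644% were called higher and 0.129% lower, and the median change was -0.03. In the transport list 2 of 54 rose and none fell, with a median of 0.09. In the transcription factor list 5 of 54 rose and none fell, with a median of -0.05. Besides the 3 MADS-box genes these were a bZIP domain protein, with a change of 1.03 (adjusted p = 0.0018 in limma), and a C3HC4 zinc finger protein, with 0.44 (adjusted p = 0.0017). Without replicate 2 at 14 days this list had 3 higher and 1 lower. The hormone list had 1 of 25, the antioxidant list 1 of 36 and the protein kinase and phosphatase list 1 of 55 higher. In the last list 1 member was lower, the hexokinase named above, which acts on glucose and is no protein kinase. In the heat shock list 1 of 8 fell, the 70 kDa cognate, and the median was -0.18. In the protease inhibitor list, picked by words in the names, 1 of 16 fell and none rose. CI2C, which rose, is not a member of that list. None of the 24 lipid transfer probesets passed, with 5 higher at an unadjusted p under 0.05, where 6.2% of all probesets stood. Most list members come from a set of probesets that the study selected on these samples, so that their counts are no independent evidence.

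The called probesets were followed over the days that the comparison did not use. Relative to the 14-day mean, the median of the 394 higher probesets was 0.13 at 21 days, 0.22 at 35 days, 0.81 at 42 days, 0.81 at 56 days and 1.05 at 70 days. The median of the 79 lower probesets was -0.16, -0.37, -0.65, -0.75 and -1.0 on the same days. Set against the 21-day arrays instead, which took no part in the choice, the median was 0.70 at 56 days and 0.93 at 70 days for the higher probesets, and 387 and 377 of the 394 lay above their 21-day mean. For the lower probesets it was -0.60 and -0.78, and 74 and 76 of the 79 lay below. Over all probesets tested the median was 0.00 at 56 days and -0.06 at 70 days. Before the cold, the higher probesets lay 0.09 above their 14-day mean, and at 2 days they lay 0.30 below it.

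**Figure D4:**
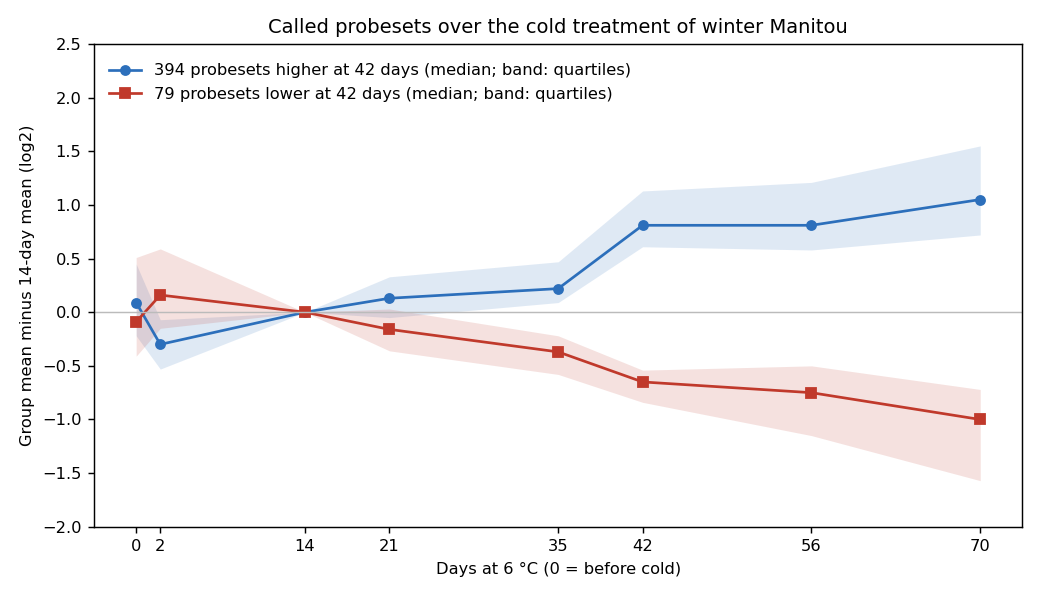
Median difference of the group mean from the 14-day mean (y axis, log2) over days at 6 °C (x axis) for the 394 probesets higher (circles) and the 79 lower (squares) at 42 days in winter Manitou, with bands for the quartiles over probesets. The higher probesets lie at 0.22 at 35 days and 0.81 at 42 days, and the values at 14 and 42 days were used to choose the probesets.

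Between 35 and 21 days the balance of calls was the reverse. In winter Manitou 17 probesets (0.0278% of those tested) were higher and 115 (0.188%) lower at 35 than at 21 days in limma, 132 in all (0.216%), while 5% and 4.03% of probesets were higher and lower at an unadjusted p under 0.05. Of the 394 probesets higher at 42 days, 279 (70.8%) had a positive change here, against 52.1% of all probesets, and 7 were called. Of the 79 lower ones, 62 (78.5%) had a negative change, against 47.9% of all, and 6 were called. The 7 and 6 moved in the same direction in both comparisons, and no probeset called in both moved in opposite directions. The total of 132 became 30, 50 and 100 without replicates 1, 2 and 3 at 21 days, and 106, 31 and 53 without those at 35 days.

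Spring Manitou and winter Norstar were set beside winter Manitou to see where its change differed. From 14 to 42 days, spring Manitou had 1054 probesets higher (1.72%) and 918 lower (1.5%), and winter Norstar had 1217 higher (1.99%) and 752 lower (1.23%). Of the 394 probesets higher in winter Manitou, 241 (61.2%) were also called higher in spring Manitou, which is 22.9% of its 1054, and 177 (44.9%) in winter Norstar, which is 14.5% of its 1217. Both lines had 3.22% of all probesets called. Of the 79 lower ones, 42 (53.2%) were called lower in spring Manitou, or 4.58% of its 918, and 30 (38%) in winter Norstar, or 3.99% of its 752. In 391 of the 394 and 74 of the 79 the change had the same sign in spring Manitou, and in 375 and 73 in winter Norstar. The median change over all probesets tested was -0.02 in spring Manitou and -0.03 in winter Norstar. The larger totals in the other lines do not show a larger change gene by gene, since the difference itself passed the test in few probesets.

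The change in winter Manitou differed from that in spring Manitou in 4 probesets (0.00654%), all with the larger rise in winter Manitou and 0 the other way, while 859 (1.4%) and 1078 (1.76%) differed upward and downward at an unadjusted p under 0.05. Vrn-A1 changed by 2.81 in winter Manitou and 0.20 in spring Manitou, a difference of 2.61 (SE 0.25, adjusted p = 6.5e-11 in limma). In spring Manitou it stood at 10.23, 10.83 and 10.62 at 42 days and 10.40, 10.31 and 10.36 at 14 days, so that its 14-day arrays lay below those of winter Manitou at 42 days (10.96 to 11.15) and above those of winter Manitou at 14 days (8.12 to 8.50). Vrt1 changed by 3.00 in winter and 0.97 in spring Manitou, a difference of 2.03 (SE 0.30, adjusted p = 6.5e-05). TaAffx.143995.17.S1_s_at changed by 2.96 and 0.47 in those lines, a difference of 2.48 (adjusted p = 7e-11). The last of the 4, Ta.23165.1.S1_at, which was chosen after its values were seen, was dim, with 4.33, 4.04 and 4.57 at 42 days and 3.27, 2.92 and 3.17 at 14 days in winter Manitou. It was back at 3.19, 3.96 and 3.27 at 56 days. Without replicate 1 of spring Manitou at 42 days the count of 4 became 7.

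Against winter Norstar, which shares the vrn-A1 allele, the difference passed in 1 probeset (0.00163%), again Ta.23165.1.S1_at, by 1.23 (adjusted p = 0.00049 in limma), while 1894 (3.1%) and 2317 (3.79%) differed upward and downward at an unadjusted p under 0.05. Leaving out replicate 2 of winter Norstar at 14 days raised the 1 to 65, leaving out replicate 3 of winter Norstar at 42 days raised it to 14, and leaving out replicate 2 of winter Manitou at 14 days gave 0. The count was 3 without replicate 3 of winter Manitou at 42 days or replicate 1 of winter Norstar at 42 days, and 2 without replicate 1 of winter Manitou at 14 days or replicate 3 of winter Norstar at 14 days. Vrn-A1 rose by 2.81 in winter Manitou and 2.33 in winter Norstar, and the difference of 0.48 had an interval of -0.02 to 0.98 (adjusted p = 0.75). For Vrt1 the difference was 0.48, with an interval of -0.13 to 1.08 (adjusted p = 0.82). These intervals do not show that the winter lines rose alike. Other genes had wide differences that missed the threshold. TaAffx.109962.1.S1_at changed by 2.76 in winter Manitou and 0.04 in winter Norstar, where it stood at 4.38, 4.65 and 4.85 at 42 days and 4.44, 4.65 and 4.67 at 14 days, and the difference of 2.72 had an adjusted p of 0.017. The RUBISCO LSU binding protein fell by 3.19 in winter Manitou and by 1.74 in winter Norstar, and passed in both. The difference of -1.45 had an adjusted p of 0.031. The jacalin-like lectin changed by 2.70 in winter Manitou and -0.24 in winter Norstar, where its arrays lay between 2.58 and 3.04, a difference of 2.94 (SE 0.72, adjusted p = 0.15). The glycine-rich wall protein lay between 3.88 and 4.17 in winter Norstar at both days, and the difference of -1.89 had an adjusted p of 0.12.

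Several of the named changes were shared by all lines compared. Chitinase 2 rose by 1.32 in winter Manitou, 1.13 in spring Manitou and 1.84 in winter Norstar. GSTZ1 rose by 1.36, 1.13 and 1.18, the amino acid transporter by 0.82, 0.94 and 0.79, and the receptor-like kinase by 1.07, 0.83 and 1.20, in the same order of lines, and each of these passed the test in each line. The heat shock cognate 70 kDa protein fell by 1.09 in winter Manitou, 1.90 in spring Manitou and 0.72 in winter Norstar, and also passed in each. FPF-like 1 fell by 1.09 in winter Manitou and by 1.36 in winter Norstar. In spring Manitou it had a change of -0.15 (adjusted p = 0.79) from a level that already lay at 4.10, 4.06 and 3.98 at 14 days, and the difference between the Manitou lines, -0.95, did not pass (unadjusted interval -1.54 to -0.35).

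**Figure D5:**
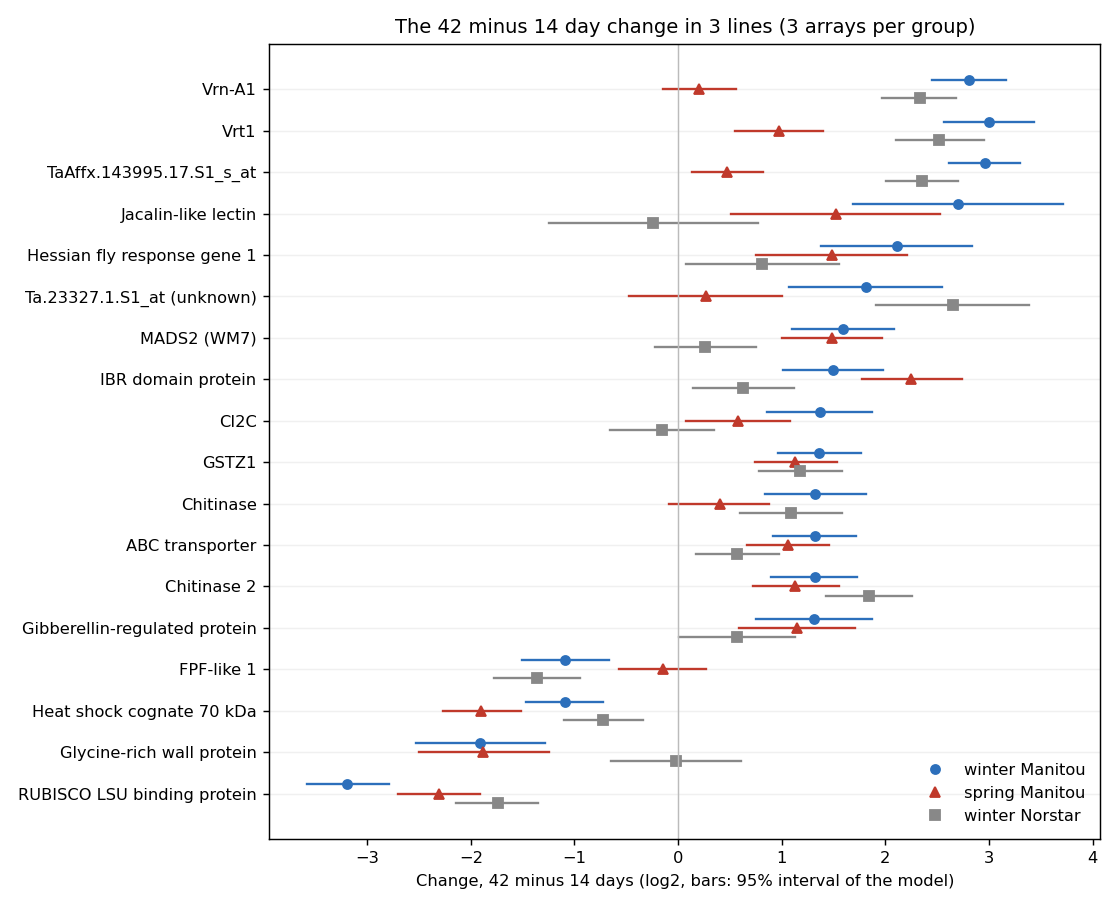
Change from 14 to 42 days (x axis, log2, 42 minus 14 days) of 18 probesets (y axis) in winter Manitou (circles), spring Manitou (triangles) and winter Norstar (squares), 3 arrays per group, with bars for the 95% interval of the model. Vrn-A1 lies at 2.81 in winter Manitou, 0.20 in spring Manitou and 2.33 in winter Norstar, and the glycine-rich wall protein at -1.91, -1.88 and -0.02.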

How the data were processed

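Affymetrix Wheat GeneChip values of 96 crown samples (32 groups of line and day, 3 arrays each) were used. The authors extracted signals with MAS 5.0 and made the deposited log2 values by RMA in GeneSpring (version not given in the sources used here), with background correction, quantile normalization and summarization. No further scaling was applied. The table held 61290 probesets, of which 111 controls were left out. A linear model with 1 mean per group was fitted to all arrays in limma 3.58.1 under R 4.3.3, and p-values were adjusted over 61179 probesets (Benjamini-Hochberg), with calls at an adjusted p under 0.01. Intervals are at 95% and unadjusted. The procedure was tested on simulated arrays. Summaries and figures used Python 3.11.15, pandas 2.3.3, numpy 2.4.6, scipy 1.17.1 and matplotlib 3.10.9.

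The arrays give no read depth: 3 arrays per group limit the precision, and p-values measure the spread between these samples of pooled crowns. The labels disagree on 1 day between 14 and 35 days, and their duration field, 21 days, was used. The comparison, gene lists and rules were chosen with earlier results of these data known. Named probesets are 27 named in the study, up to 12 of the largest rises and falls with a name, which gave 12 and 4 (called, at least 2-fold, no overlap, bright, no _x_at or _s_at suffix), 2 unnamed in each direction, up to 3 members of each of 20 lists with the smallest adjusted p, and up to 5 of the largest called differences between lines in each direction, which gave 2 for spring Manitou and 0 for winter Norstar. Names came from the study, the 1742 descriptions held of its supplement and the platform annotation, which held 1273 probesets, and a LOC number was not taken as a name. Alternatives varied the filters, arrays, blocks, scaling, variance model, array weights and threshold. Sequences and genome positions were not used here.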

Additional observations from a re-analysis of the deposited data

Results flagged for a closer look

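Groups of 3 arrays are too small for a test of single arrays against their group, so only differences between lines are given here. The change from 14 to 42 days differed between winter Manitou and spring Manitou by 2.61 in Vrn-A1 (Ta.30607.1.A1_at), by 2.03 in Vrt1 (Ta.142.1.S1_at), by 2.48 in TaAffx.143995.17.S1_s_at and by 1.36 in Ta.23165.1.S1_at on the log2 scale, with the larger rise in winter Manitou (adjusted p = 6.5e-11, 6.5e-05, 7e-11 and 9.3e-06 in limma, 3 arrays per group). Between winter Manitou and winter Norstar it differed by 1.23 in Ta.23165.1.S1_at (adjusted p = 0.00049). That probeset stayed below the brightness limit of 5.15 in all 48 Manitou arrays, and its winter Manitou arrays at 42 days, at 4.33, 4.04 and 4.57, were the highest of them.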

How the results depend on the processing

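Leaving out 1 array at a time gave 176 to 299 probesets higher and 24 to 108 lower at 42 days, 80 to 127 at least 2-fold higher and 9 to 28 at least 2-fold lower, 4 to 7 that differed from spring Manitou, 0 to 65 that differed from winter Norstar and 30 to 106 between 35 and 21 days. The 65 came without replicate 2 of winter Norstar at 14 days and 14 without replicate 3 of winter Norstar at 42 days. With array quality weights the counts were 1737 higher and 1141 lower, 246 and 39 at least 2-fold, 13 and 716 for the differences from spring Manitou and winter Norstar, and 1193 between 35 and 21 days. At an adjusted p under 0.001 they were 179 and 23, 83 and 8 at least 2-fold, and 42 between 35 and 21 days. With the 6 arrays alone 43 probesets were lower, with the 24 winter Manitou arrays 64 differed between 35 and 21 days, and with the 12 arrays of the 4 groups 2 differed from winter Norstar. Without _x_at and _s_at probesets 52 were lower. The difference from winter Norstar gave 0 among the brightest probesets and 8 with harvest as a random block; with both filters 2 differed from spring Manitou and 0 from winter Norstar. The cause of these shifts was not tested, beyond the fewer probesets or arrays in a filter.

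The replicate numbers were not shown to pair samples: deviations of same-numbered arrays correlated at -0.027, 0.086 and 0.101 between the days. With a replicate block 479 probesets were higher and 101 lower, and 151 and 23 at least 2-fold; with the block and only the 6 arrays compared the counts were 232 and 23. Further settings, chosen after seeing the data, left out a pair of 14-day arrays, so that the remaining array was assumed to vary like the other groups. Without replicates 2 and 3 there were 13 higher and 6 lower, 12 and 3 at least 2-fold, and 0 that differed from winter Norstar. Without 1 and 2 there were 73 and 4, 53 and 3 at least 2-fold, and 0 from winter Norstar. Without 1 and 3 there were 78 and 73, 53 and 67 at least 2-fold, 46 from spring Manitou and 61 from winter Norstar.

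Of 31 called probesets among the 86 followed one by one, 17 passed under each alternative other than leaving out a pair of 14-day arrays and 6 passed under all, among them Vrn-A1, Vrt1 and the RUBISCO LSU binding protein. Leaving out 1 array lost the call of 10, and array weights added 30 of the 55 uncalled ones. Of 1974 alternative values 9 changed sign, each in a probeset that did not pass. WCOR726 (Ta.28613.1.S1_at) stood at -0.57 without replicates 1 and 3 at 14 days, -0.09 and -0.003 without replicates 2 and 3 at 42 days, and -0.05 and -0.11 without replicates 1 and 3 at 14 days; the highest value with 1 array left out was 0.41. Ta.20410.1.S1_a_at stood at -0.0881 without replicates 1 and 3 at 14 days and between -0.0149 (without replicate 1 at 14 days) and 0.100 with 1 array left out, Ta.20696.1.S1_at at -0.0878 without replicates 1 and 3, and Ta.13239.1.S1_at at -0.0401 without replicates 1 and 2. The number of arrays, 3 a group, limits the precision.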

Other observations

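Several genes outside the groups above had changes over 1 log2 unit that missed the threshold. A serine/threonine protein kinase (Ta.5331.1.A1_a_at) stood at 8.04, 7.40 and 7.77 at 42 days, against 6.08, 6.04 and 6.33 at 14 days, a change of 1.59 (adjusted p = 0.021 in limma). The peptide transporter PTR2 (Ta.13980.1.S1_at) had 1.01 (adjusted p = 0.013). A xyloglucan xyloglucosyl transferase (Ta.14995.2.S1_a_at), an enzyme that remodels cell walls, had 1.25 (adjusted p = 0.011). An amylase inhibitor-like protein (Ta.20930.1.S1_at) stood at 8.47, 7.80 and 7.00 at 42 days, against 8.72, 9.33 and 9.09 at 14 days, a change of -1.29 (adjusted p = 0.011).

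A second group 1 LEA probeset, Ta.13165.2.S1_at, stood at 3.55, 4.28 and 4.03 at 42 days, against 4.43, 7.52 and 4.32 at 14 days, and its change was -1.47 (adjusted p = 0.02 in limma), or -0.42 (adjusted p = 0.75) without replicate 2 at 14 days. The median of 36 spike-in control probesets was 7.53, 7.72 and 7.86 in the 42-day arrays and 7.71, 7.19 and 7.22 in the 14-day arrays. The difference between the 3' and 5' control probesets of actin, a sign of RNA quality, was -1.77, -1.64 and -1.97 at 42 days and -2.04, -1.83 and -1.81 at 14 days, so that it overlapped between the days.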
